A study of Homo sapiens with 5 samples.

Results

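The promoters described here carried more than 1 separate PHF8 peak. The stretch within 1 kb of the 5′ end of each autosomal protein-coding gene record was taken as its promoter, and it was included where the summits of at least 2 separate peaks fell inside the window in each of 3 replicate peak lists. Of 19229 such promoters, 2289 met this rule (11.9%), and they are called multi-peak promoters, or members. They lay in 1905 loci when promoters with overlapping windows were counted once, since both genes of a head-to-head pair can share the same peaks. The comparison class was the 4531 promoters (23.6%) with exactly 1 summit in every replicate, called single-peak promoters, in 3945 loci. Both classes were chosen by the number of summits in these same lists, so all values of summit number, position, width and enrichment are given as a description, with no test, apart from a pair of comparisons in replicates held out from the choice.

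The lists came from ChIP-seq, the sequencing of DNA fragments pulled down with an antibody, here anti-PHF8, from the established human melanoma line SKMEL-147. There were 3 ChIP replicates (A, B1 and B2) and 2 input libraries (A and B), which were used here only as far as the peak calls contain them. The labels give no treatment, genotype or time for these cells beyond the cell line, so whether they carried a guide RNA, control or other, is not known here. They also do not say whether the replicates came from separate cultures, so the spread between them may be technical. The series' design text mentions a PHF8 loss-of-function model made with guide RNAs, but no ChIP from PHF8-depleted cells was analysed here, and the specificity of the antibody was not tested. Peak lists hold no expression values, so the labelled cell type could not be checked against marker genes.

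PHF8 belongs to the Jumonji C demethylases and acts on repressive methyl marks of histones H3 and H4. Its PHD finger binds trimethylated lysine 4 of histone H3, a mark of the nucleosomes that flank active promoters. Between these flanking nucleosomes lies a nucleosome-depleted stretch where transcription factors and the polymerase assemble, and many human promoters with a high CpG content start transcription in both directions from it. The CCAAT box is the recognition sequence of NF-Y, a 3-subunit factor (NF-YA, NF-YB and NF-YC) that binds such stretches in many housekeeping and cell cycle genes.

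Sequences of 4 multi-peak promoters are shown because the CCAAT box had the largest difference in share between members and single-peak promoters among the 9 motifs searched. For each, the stretch under the upstream summit, the stretch at the centre of the gap between the peaks and the stretch under the downstream summit are given as 101 bases of the GRCh37 reference (the same build as hg19), 5′ to 3′ on the strand of the gene, with the summits of replicate A. Capitals mark every match, on either strand, to these motifs, which are named further on. TRIM26, an E3 ubiquitin ligase gene, was among the members with the strongest second peak, and its gap held a pair of CCAAT matches, 1 on each strand, while neither summit stretch held any.
TRIM26 upstream summit, chr6:30182095-30182195, minus strand: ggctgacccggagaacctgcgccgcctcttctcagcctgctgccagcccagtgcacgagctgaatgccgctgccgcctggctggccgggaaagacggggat
TRIM26 gap centre, chr6:30181215-30181315, minus strand: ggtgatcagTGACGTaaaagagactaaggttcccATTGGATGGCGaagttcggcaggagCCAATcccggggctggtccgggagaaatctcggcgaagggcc
TRIM26 downstream summit, chr6:30180979-30181079, minus strand: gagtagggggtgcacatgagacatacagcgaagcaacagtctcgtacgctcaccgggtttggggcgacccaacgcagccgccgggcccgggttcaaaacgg

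The other 3 promoters were among those with the strongest second peaks of members with exactly 2 summits, 1 on each side of the 5′ end, and with no annotated untranslated region in the 3 stretches. GRPEL1 encodes a co-chaperone of protein import into mitochondria. Its only CCAAT match in these stretches lay in the gap.
GRPEL1 upstream summit, chr4:7070189-7070289, minus strand: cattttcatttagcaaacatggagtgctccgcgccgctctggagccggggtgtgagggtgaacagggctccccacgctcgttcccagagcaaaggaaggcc
GRPEL1 gap centre, chr4:7069903-7070003, minus strand: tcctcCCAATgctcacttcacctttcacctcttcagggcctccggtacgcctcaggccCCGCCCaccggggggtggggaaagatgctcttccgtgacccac
GRPEL1 downstream summit, chr4:7069590-7069690, minus strand: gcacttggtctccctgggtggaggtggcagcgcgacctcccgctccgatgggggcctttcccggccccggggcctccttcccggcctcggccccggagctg
CETN3 encodes a centrin of the centrosome. It had 1 CCAAT match under the upstream summit and 1 in the gap, where a TGACGT match lay close by.
CETN3 upstream summit, chr5:89705950-89706050, minus strand: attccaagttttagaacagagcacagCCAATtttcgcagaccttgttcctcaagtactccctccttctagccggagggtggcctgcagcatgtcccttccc
CETN3 gap centre, chr5:89705649-89705749, minus strand: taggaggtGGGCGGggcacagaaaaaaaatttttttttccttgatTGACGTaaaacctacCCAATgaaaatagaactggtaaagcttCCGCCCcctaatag
CETN3 downstream summit, chr5:89705354-89705454, minus strand: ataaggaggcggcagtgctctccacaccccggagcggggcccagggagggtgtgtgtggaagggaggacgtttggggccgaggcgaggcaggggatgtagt
COPE encodes a subunit of the coatomer coat of Golgi vesicles. Its only CCAAT match lay at the gap centre, on the strand opposite to the gene.
COPE upstream summit, chr19:19030601-19030701, minus strand: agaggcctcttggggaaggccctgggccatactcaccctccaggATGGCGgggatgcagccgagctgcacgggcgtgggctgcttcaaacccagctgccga
COPE gap centre, chr19:19030311-19030411, minus strand: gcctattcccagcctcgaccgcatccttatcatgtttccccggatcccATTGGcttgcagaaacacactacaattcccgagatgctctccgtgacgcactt
COPE downstream summit, chr19:19030029-19030129, minus strand: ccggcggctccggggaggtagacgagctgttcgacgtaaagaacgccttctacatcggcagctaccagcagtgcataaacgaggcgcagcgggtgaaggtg

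The 3 lists held 21506, 20882 and 20120 peaks in A, B1 and B2, with a median of 54, 39 and 40 ChIP fragments at the summit as recovered from the deposited values. Read totals are unknown, and intervals on shares (95% Wilson) cover counting error only. Neighbouring peaks of a list were never closer than 52 bp, which was therefore the smallest gap at which 2 peaks could be counted as separate. At least 2 summits fell in the window of 3718 promoters in A (19.3% of those tested), 4146 in B1 (21.6%) and 4113 in B2 (21.4%). A further 1575 promoters met the rule in exactly 2 replicates and 1960 in exactly 1. Among the 10224 promoters with at least 1 summit in every replicate, 22.4% were multi-peak promoters. Most members, 1735 (75.8%), had exactly 2 summits in every replicate, and 73 (0.38% of all promoters tested) had 3 or more.

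Summits of multi-peak promoters lay on either side of the 5′ end, and the stretch just upstream of it was nearly empty in both classes. Positions are given in bp from the 5′ end, negative upstream. Between −100 and −50 bp members had 0.568 to 0.743 summits per 100 promoters and single-peak promoters 0.441 to 0.463. Upstream single summits were most frequent between −250 and −200 bp, with 5.69 to 6.78 per 100 promoters, where members had 8.13 to 8.34. The median position of the upstream-most summit was −352, −354 and −353 bp in A, B1 and B2. The downstream-most summit lay at a median of 185, 192 and 192 bp. The single summit of the comparison class lay at 148 bp downstream in each of the 3 replicates, so the downstream summit of members sat near the place of a single summit, and the upstream summit lay where few single summits were found. Summits flanked the 5′ end in 89.3%, 88.5% and 88.5% of members, a mean of 88.8% ± 0.467 (SD, n = 3), and in the same 1947 members (85.1%) in all replicates. All summits were downstream in 10.1% ± 0.467 and all upstream in 1.18%, whereas 21.1% ± 0.265 of single summits were upstream (each SD, n = 3).

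**Figure D1:**
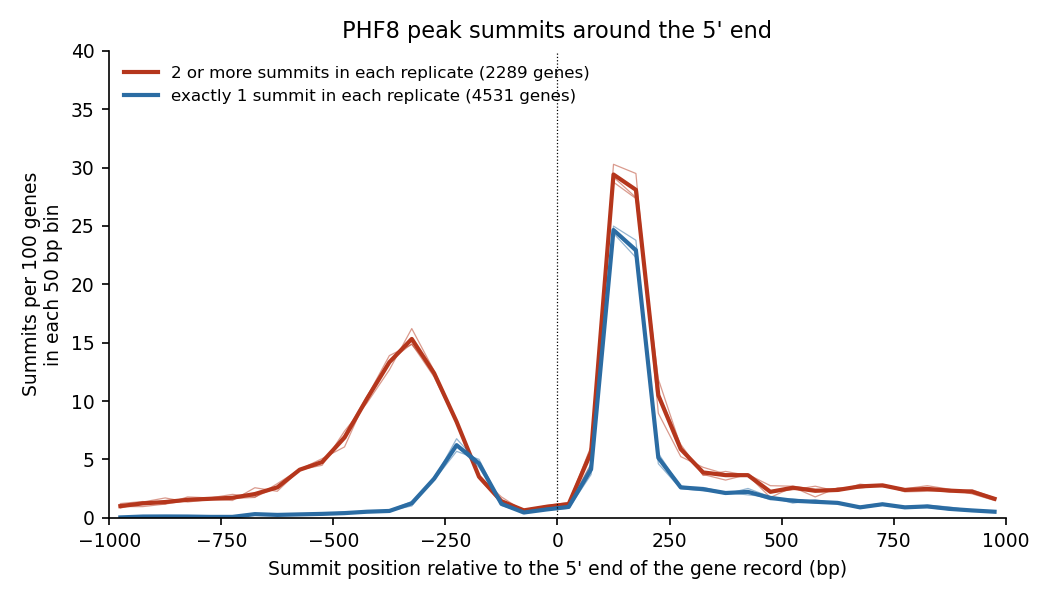
Summits per 100 genes (y axis) in bins of 50 bp by distance from the 5′ end of the gene record (x axis, bp) for multi-peak and single-peak promoters, with a thin line per replicate and a thick line for their mean. Multi-peak promoters had 14.9 to 16.2 summits per 100 genes between −350 and −300 bp, where single-peak promoters had 1.02 to 1.39, and both classes had their highest bin 100 to 150 bp downstream.

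The distance between the outermost summits had nearly the same median in each replicate and a wide spread over promoters. The median was 585, 591 and 587 bp in A, B1 and B2, a mean of 588 bp ± 3.06 (SD, n = 3), and the middle 50% of promoters lay between 498 and 770 bp (means of the quartiles). The smallest distance was 233 to 259 bp and the largest 1850 to 1913 bp over the replicates. Between the inner edges of the peaks lay a gap with medians of 159, 194 and 206 bp (A, B1, B2). Replicate A had the narrowest gaps, and 20.3% of its gaps were under 100 bp against 8.96% in B1 and 8.34% in B2. It also had the most fragments per summit, and a link between gap width and fragment number was not tested. The centre of the gap was at the same place in all replicates, a median of −95.0, −94.5 and −93.5 bp. The gap contained the 5′ end itself in 30.1% ± 5.59 of members (SD, n = 3).

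The stretch over all peaks of a multi-peak promoter, gaps included, was also longer than a single peak. From the start of the first to the end of the last peak it spanned a median of 1205 bp ± 32.7, against a width of 902 bp ± 24.0 for a single peak (each SD, n = 3). The strongest peak of a member was by itself narrower, 527 bp ± 25 (SD, n = 3). The rule asks for at least 2 separate peaks, so both differences follow in part from it.

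The pattern of a promoter was recovered in replicates that had not been used to choose it. Promoters with at least 2 summits in 2 replicates had at least 2 in the held-out replicate in 74.3% (95% interval 72.8 to 75.9) for A, 86.8% (85.4 to 88.0) for B1 and 84.0% (82.6 to 85.3) for B2. Promoters with exactly 1 summit in 2 replicates had at least 2 in the held-out replicate in 11.1% for A, 11.6% for B1 and 12.7% for B2. The mean difference was 69.9 percentage points ± 6.08 (SD, n = 3), in the same direction in 3 of 3 replicates. Flipping the signs of the 3 differences (exact permutation test, two-sided) gave p = 0.25, the smallest p that 3 replicates allow, so no threshold of 0.05 could be reached. Each replicate also helped to choose the classes for the other 2, so the 3 differences are not independent. The held-out share was lowest for A, which had the narrowest gaps and is also the only replicate that shares no letter with another in the labels, and the part of either was not tested.

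Positions were also stable. Among the 1735 members with exactly 2 summits in each replicate, the median range over replicates was 33 bp for the upstream and 30 bp for the downstream summit, and both stayed within 100 bp in 1510 members (87.0%). Promoters that missed the rule through a single replicate differed in what that replicate showed. Where A had 1 summit and the other 2 replicates at least 2, the peak in A, with a median width of 1099 bp, covered the summits of each other replicate in 688 of 785 promoters (87.6%, 95% interval 85.2 to 89.8). The corresponding count was 215 of 345 (62.3%) for B1 and 153 of 425 (36.0%, 31.6 to 40.7) for B2. Most of these promoters thus had 1 peak over the place of the separate peaks in A and in B1, and fewer did in B2.

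The strongest and the second peak of each member were ranked within the replicate, so that the first is the higher by definition. Fold enrichment, the ratio of ChIP over local background at the summit, had medians of 33.5, 19.1 and 18.1 (A, B1, B2) for the strongest peak of members. The second peak had 17.1, 9.71 and 9.20. The single peak of the comparison class had 35.3, 20.8 and 19.98. Scales differ between lists, so fold enrichments are compared within a replicate only. The strongest peak exceeded the second by a median ratio of 1.75 ± 0.00506 (SD, n = 3), and by more than 2-fold in 39.8% ± 0.634 of members. In its own list the strongest peak lay at a median percentile of 73.0 ± 1.43, the second at 42.9 ± 3.80 and the single peak at 77.0 ± 0.253 (each SD, n = 3). The weakest second peak held 9, 9 and 10 fragments in A, B1 and B2.

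**Figure D2:**
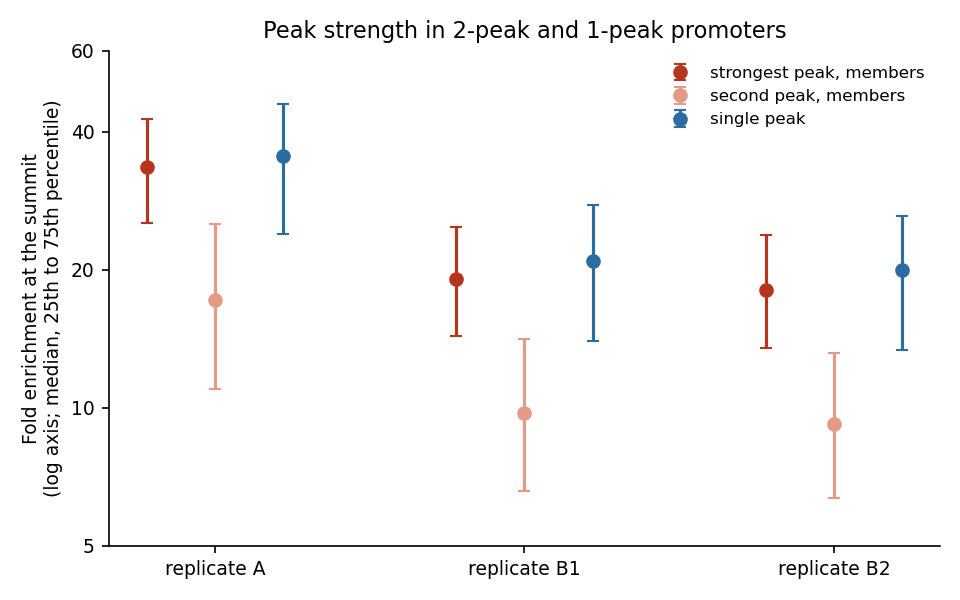
Fold enrichment at the summit (y axis, log scale) in replicates A, B1 and B2 for the strongest and the second peak of members and for the peak of single-peak promoters, as medians (points) with the 25th and 75th percentiles (bars). In A the medians were 33.5, 17.1 and 35.3, and the second peak was the lowest of the 3 in every replicate.

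The strongest peak was close in strength between multi-peak and single-peak promoters in replicates that had not chosen the classes. The classes here were those set by the other 2 replicates, with 2638 to 3079 and 5154 to 5293 promoters. The strongest peak was read in the held-out replicate whatever its number of summits there. In held-out A the median fold enrichment was 33.9 for multi-peak and 34.5 for single-peak promoters. It was 19.0 against 20.8 in held-out B1 and 17.7 against 19.7 in held-out B2. The log2 difference, multi-peak minus single-peak, was −0.03, −0.13 and −0.15, a mean of −0.10 ± 0.067 (SD, n = 3), lower for multi-peak promoters in 3 of 3 replicates, with p = 0.25 in the same exact permutation test, again the smallest possible value. In recovered fragments the mean log2 difference was −0.16 ± 0.074 (SD, n = 3).

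The downstream peak was more often the stronger. It had the higher fold enrichment in 62.9%, 62.2% and 61.5% of members in A, B1 and B2. In 1070 members (46.7%) the downstream-most peak was stronger in all replicates, in 526 (22.98%) the upstream-most peak was, and in 693 (30.3%) the stronger side differed between replicates. Annotation at the summits also differed, which follows in large part from their positions. A summit shortly downstream of the 5′ end lies inside its own gene record and just past that gene's own start. The upstream-most summit fell between genes in 37.8% ± 0.133 of members and the downstream-most summit in 0.612% ± 0.0437, while 49.7% ± 0.546 of upstream-most and 89.0% ± 0.341 of downstream-most summits lay 0 to 300 bp downstream of some annotated transcription start (each SD, n = 3). For single summits that share was 87.6% ± 0.221 (SD, n = 3).

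Multi-peak promoters more often held a transcription start site (TSS) of another gene. By gene, such a TSS lay in the window of 1350 members (59.0%, 95% interval 56.9 to 61.0), 2219 single-peak promoters (49.0%, 47.5 to 50.4) and 36.7% of all promoters. An upstream TSS on the opposite strand, the head-to-head arrangement, was present in 46.0% (44.01 to 48.1) of members, 31.3% (29.9 to 32.6) of single-peak promoters and 23.3% of all. Head-to-head pairs enter these shares from both sides. With 1 gene per locus, the shares with another gene's TSS were 50.9% (48.6 to 53.1) of members and 41.6% (40.1 to 43.2) of single-peak promoters, and those with the head-to-head arrangement 38.6% (36.4 to 40.8) and 25.7% (24.4 to 27.1). The nearest such partner by gene record was protein-coding in 466 members (20.4%) and 526 single-peak promoters (11.6%), and a long non-coding RNA (lncRNA) in 301 (13.1%) and 423 (9.34%). Read the other way, among the 2289 members and 4531 single-peak promoters together, members were 47.0% (43.9 to 50.1) of those with a protein-coding partner. They were 41.6% (38.0 to 45.2) of those with a lncRNA partner and 28.9% (27.4 to 30.5) of those with no other TSS in the window. By locus these 3 values were 46.7%, 41.6% and 28.9%, computed like the other values by locus after the data were seen. Still, 939 members had no annotated TSS of another gene in the window, so the second peak was present without a known partner in many promoters.

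The strength of the upstream peak relative to the downstream peak was compared by the kind of partner. Members with summits on both sides in all replicates numbered 450 with a protein-coding partner, 278 with a lncRNA partner and 789 with no other TSS. The upstream summit lay a median of 156 bp ± 1.15 inside the lncRNA partner, near the 148 bp of a single summit from its own gene (SD, n = 3). It lay 172 bp ± 3.50 inside the protein-coding partner, where the downstream-most summit lay 180 bp ± 2.52 inside the gene itself (SD, n = 3). Both of these values come largely from the same summits seen from either side, since most protein-coding partners were members too. Upstream over downstream fold enrichment had a median of 0.719 ± 0.0371 with a lncRNA partner and 0.586 ± 0.0159 with no other TSS (SD, n = 3). With a protein-coding partner it was 1.01, but this value was fixed by the counting, since in 442 of the 450 the partner was a member too and each pair entered from both sides. With 1 gene per locus, the ratio of the strongest to the second peak, which holds no direction, was 1.58 ± 0.0358 in 226 protein-coding pairs, 1.66 ± 0.0357 in 270 lncRNA pairs and 1.88 ± 0.0538 in 786 promoters with no other TSS (SD, n = 3). Transcription from either side was not measured.

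Single-peak promoters could also hold 2 genes under 1 peak. Where they had a divergent protein-coding partner, the peak covered both 5′ ends in 82.4% ± 1.05 (SD, n = 3). Its median width was 999 bp ± 25.5 with a protein-coding partner, 1014 bp ± 26.3 with a lncRNA partner and 835 bp ± 32.8 with no other TSS (SD, n = 3).

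CpG-rich sequence covered more of the window in multi-peak promoters. CpG-rich sequence was the union of 200 bp windows with 50% GC or more and a CpG count of 0.6 or more of that expected from base composition, and it covered a median of 1460 bp of the 2-sided window in members. The median was 1220 bp in single-peak promoters, 210 bp in promoters with no summit in any replicate and 1060 bp in all promoters. Upstream, between −400 and −350 bp, members had 5.93 CpG dinucleotides per 100 bp and single-peak promoters 4.35. Just downstream, between 50 and 100 bp, the classes had 9.71 and 9.73. Further downstream members were higher again, with 5.84 against 5.15 between 650 and 700 bp.

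The CCAAT box was more frequent in multi-peak promoters, and in them it was more frequent at the gap between the peaks than at the summits. Searched as CCAAT or its complement ATTGG, it was present within 150 bp of the 5′ end in 1087 members (47.5%, 95% interval 45.4 to 49.5) and 1206 single-peak promoters (26.6%, 25.4 to 27.9). It was present in 32.6% (31.6 to 33.6) of promoters with no summit and in 33.5% of all promoters of this length. Within 150 bp of the gap centre 54.1%, 54.0% and 53.8% of members held the motif in A, B1 and B2. Within 150 bp of the upstream-most summit the mean share was 22.6% ± 0.652, of the downstream-most summit 17.3% ± 0.571 and of a single summit 12.4% ± 0.0584 (each SD, n = 3). Centred on the gap, the density peaked at 19.7 ± 0.562 matches per 100 members in the bin of 40 bp just downstream of the centre, where the same letters reversed (TAACC) gave 2.71 ± 0.231 (SD, n = 3). Aligned on the 5′ end, the same width from −80 to −40 bp held 22.1 matches per 100 members, so the gap centre was not the sharper anchor. The TRIM26, GRPEL1 and COPE stretches printed above show this arrangement. All 4 promoters shown had a match in the gap, whereas 1202 members (52.5%) had none within 150 bp of the 5′ end. A match is a description of the letters and not of a bound site, and NF-Y binding was not measured.

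**Figure D3:**
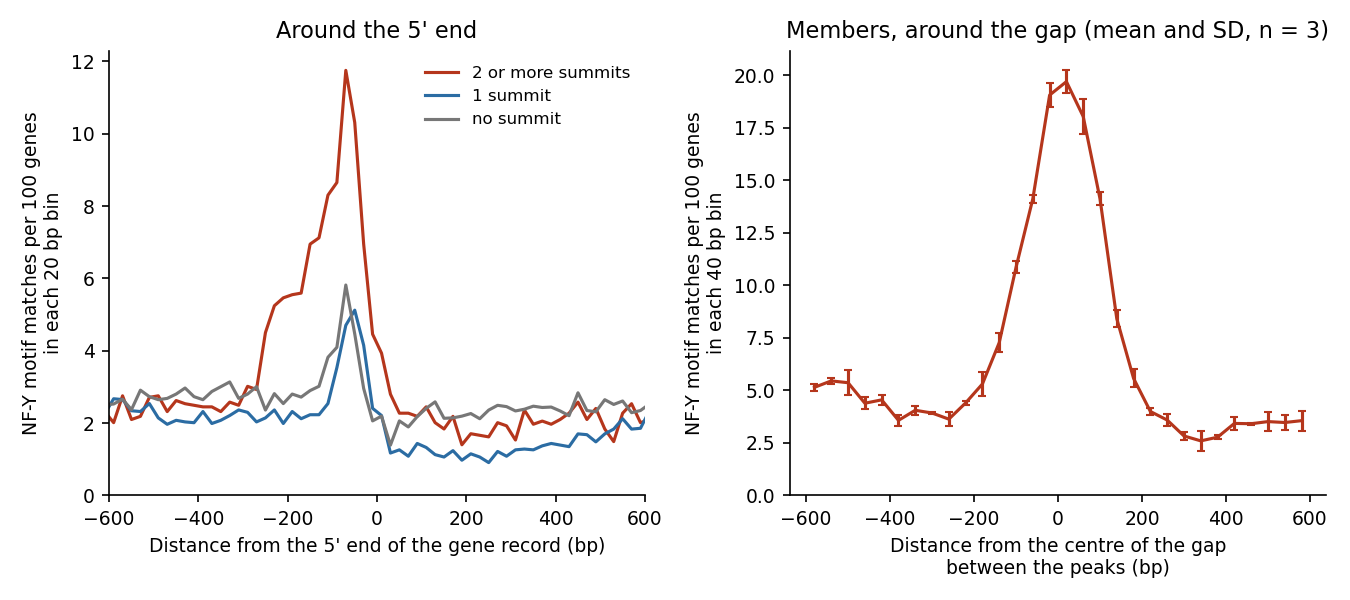
Matches to the NF-Y motif (CCAAT box) per 100 genes, on the left in bins of 20 bp by distance from the 5′ end for promoters with 2 or more summits, 1 summit or no summit, and on the right in bins of 40 bp by distance from the gap centre of members (mean and SD of 3 replicates). Members reached 11.8 matches per 100 genes between −80 and −60 bp, against a highest bin of 5.12 for single-peak promoters and 5.82 for promoters with no summit.

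The share of members rose with the number of CCAAT matches. It was taken among the 2289 members and 4531 single-peak promoters together. The 11.9% of all promoters and the 22.4% of promoters with a summit in each replicate are therefore not its background. Its background is the share of the 2289 members in both classes together, which ran from 21.9% on chromosome 3 to 45.0% on chromosome 21. Among the multi-peak and single-peak promoters with no match within 150 bp of the 5′ end, 1202 of 4527 were members (26.6%, 95% interval 25.3 to 27.9). With 1 match 593 of 1479 were (40.1%, 37.6 to 42.6), with 2 matches 334 of 584 (57.2%, 53.1 to 61.1) and with 3 or more 160 of 230 (69.6%, 63.3 to 75.2). These intervals count each gene separately, although head-to-head genes can share the same peaks and matches, and this grouping was not repeated by locus. In members, the median gap was 177 bp ± 21.4 with no match and 212 bp ± 29.4 with 3 or more, while the distance between outermost summits was 596 bp ± 4.31 and 591 bp ± 7.55 (SD, n = 3). This grouping was chosen after the data were seen.

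**Figure D4:**
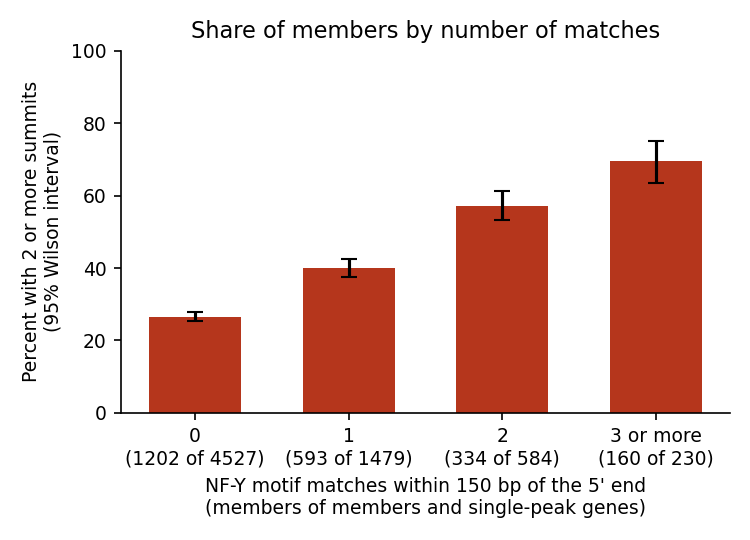
Percentage of promoters that were members (y axis), among the 2289 members and 4531 single-peak promoters together, by the number of NF-Y motif matches within 150 bp of the 5′ end (x axis), as columns with 95% Wilson intervals as error bars. The share was 26.6% with no match and 69.6% with 3 or more.

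The CCAAT difference was present in every subset examined, all chosen after the data were seen. Without any other TSS in the window, 47.1% (43.9 to 50.3) of members and 27.2% (25.5 to 29.1) of single-peak promoters held the motif. With a protein-coding partner the shares were 51.9% and 27.4%, beside 39.4% of all promoters with such a partner. With a lncRNA partner they were 46.2% and 25.5%, beside 34.7%. With 1 gene per locus they were 46.7% and 26.7%. Over 3 ranges of GC content within 150 bp of the 5′ end the shares were 56.9% against 36.0% under 62% GC, 50.9% against 27.5% from 62 to 70% GC, and 36.5% against 19.2% at 70% GC or more. All promoters in these ranges had 39.5%, 33.3% and 23.6%. Promoters with no summit had 37.2%, 25.8% and 19.4%, near the single-peak promoters of each range. The reversed letters TAACC, of equal base composition, were found in 18.3% of members, 16.5% of single-peak promoters and 19.4% of all promoters.

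Other motifs separated the classes less, or the other way. The ETS site CCGGAAG, like the others on both strands, was found within 150 bp of the 5′ end in 16.4% (14.9 to 18.0) of members, 22.1% (20.95 to 23.4) of single-peak promoters and 12.1% of all promoters. In promoters with under 62% GC the ETS shares were 19.5% and 20.1%, so the difference was seen at higher GC, with 19.6% against 28.3% from 62 to 70% and 10.8% against 18.7% at 70% or more. The GC box GGGCGG of SP and KLF factors was in 75.8% of members, 69.5% of single-peak promoters and 54.4% of all. The cAMP response element core TGACGT was in 12.8%, 10.8% and 8.37%. The remaining 5 motifs were about as frequent in members as in single-peak promoters. These were the TATA box TATAAA (3.71% and 3.88%, 9.31% of all), the E-box CACGTG (9.35% and 9.60%, 7.70% of all), the NRF1 core TGCGCA (13.6% and 13.2%, 9.18% of all), the YY1 core ATGGCG (22.4% and 22.3%, 15.2% of all) and the ZBTB33 core TCGCGAG (4.54% and 4.35%, 2.88% of all). Placement at the gap was not particular to CCAAT. Within 150 bp of the gap centre, the upstream-most and the downstream-most summit, the mean shares of members were 14.5%, 5.87% and 4.14% for TGACGT. They were 14.6%, 6.71% and 6.09% for TGCGCA, and 17.9%, 7.75% and 9.47% for CCGGAAG. For GGGCGG they were 79.9%, 51.3% and 63.9%, and for CACGTG 11.4%, 7.12% and 5.40%. ATGGCG was the other way, with 15.6%, 14.9% and 22.8%. Matches were allowed to overlap, and none of these words contains another.

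Individual promoters show the range. The strongest second peaks belonged to ANKRD16 and FBH1, a head-to-head pair on chromosome 10 whose 5′ ends lie close together, FBH1 at −297 bp from ANKRD16, so that both share the same 2 main peaks. FBH1 encodes a DNA helicase of homologous recombination. Seen from ANKRD16, the upstream summit had a fold enrichment of 54.9, 47.6 and 46.4 in A, B1 and B2. The downstream summit had 52.8, 42.4 and 33.1, and the mean percentile of the second peak was 97.2. TRIM26 followed, with summits at −941, −945 and −939 bp and at 175, 162 and 198 bp. Its upstream peak had 49.7, 34.5 and 32.9 and its downstream peak 51.7, 34.7 and 36.0, so both were nearly equal in every replicate.

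The next 3 had no gene record that starts upstream on the opposite strand in the window. Opposite-strand starts downstream of the 5′ end, as where gene records overlap, are not covered by this. They were present in 18.4% of all members and 19.6% of single-peak promoters. P4HB, the protein disulfide isomerase of the endoplasmic reticulum, had 49.9, 28.4 and 34.4 upstream and 58.0, 35.2 and 33.6 downstream. MBD4, a DNA glycosylase that acts on mismatches at methylated CpG, had 51.2, 30.5 and 28.8 upstream and 49.3, 28.5 and 30.8 downstream. For both genes the stronger side differed between replicates. AHSA1, an activator of the chaperone HSP90, had 42.4, 42.3 and 36.4 upstream and 52.6, 30.7 and 31.0 downstream.

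**Figure D5:**
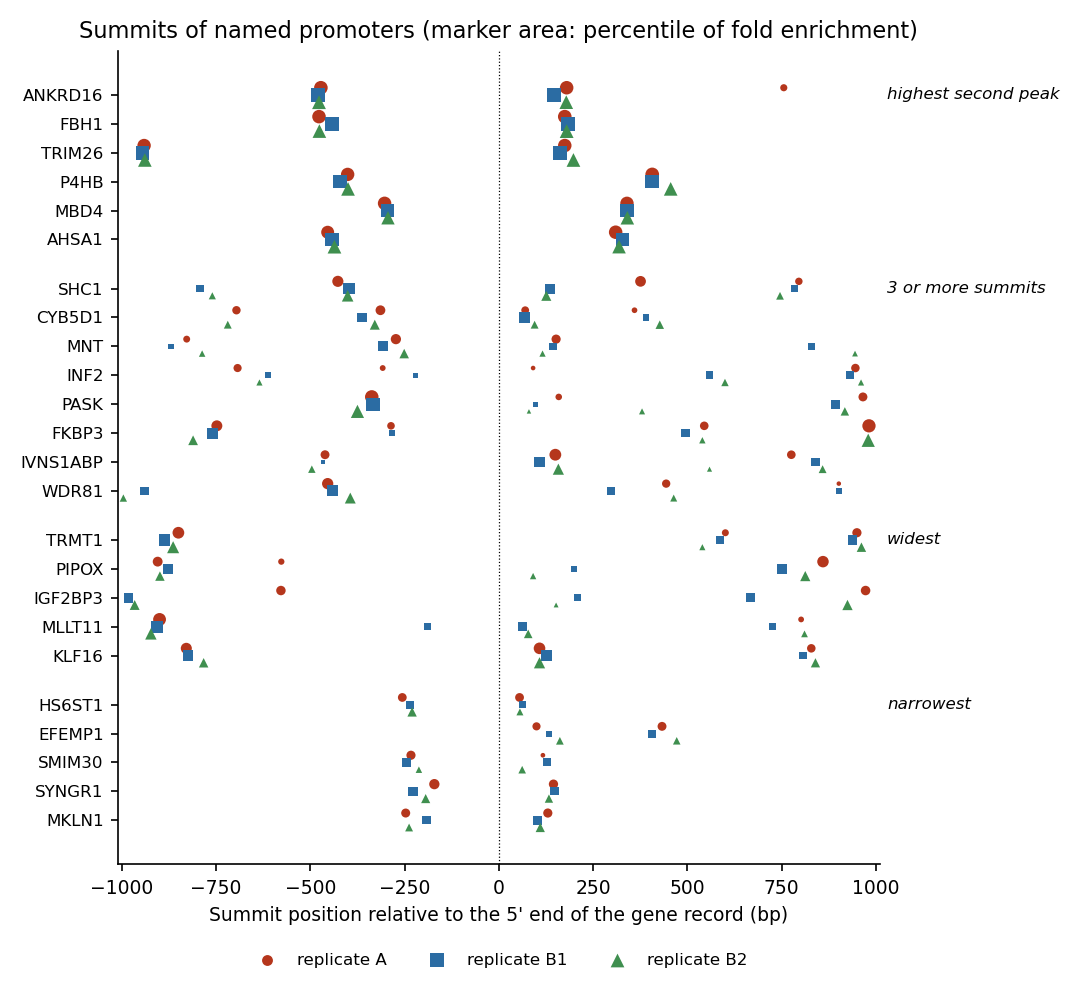
Positions of all summits (x axis, bp from the 5′ end) in named multi-peak promoters (y axis), with a symbol per replicate and an area that grows with the percentile of fold enrichment in its list. The 6 promoters with the strongest second peak have summits on both sides in each replicate, and the group with 3 or more summits has small additional peaks toward the edges of the window.

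The widest pairs of summits belonged to TRMT1, a tRNA methyltransferase gene, with a mean distance of 1817 bp, PIPOX (1702 bp), IGF2BP3, an RNA-binding protein gene (1697 bp), MLLT11 (1690 bp) and KLF16 (1637 bp). Their outermost summits lay toward both edges of the window, and TRMT1, PIPOX and KLF16 had 3 summits in each replicate. KLF16, a zinc finger factor of GC-rich sites, had summits at −829, −824 and −783 bp and at 829, 807 and 840 bp, with another between them at 108, 126 and 108 bp. The outer summits of IGF2BP3 were less stable, since the upstream one was at −578 bp in A and at −982 and −966 bp in B1 and B2.

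The narrowest pairs belonged to HS6ST1, a heparan sulfate sulfotransferase gene, with a mean distance of 299 bp, EFEMP1 (305 bp), SMIM30 (332 bp), SYNGR1 (339.667 bp) and MKLN1 (340.0 bp). All 5 were weak, with a second peak at a mean percentile of 14.6 to 32.8. HS6ST1 had summits at −256, −235 and −230 bp with a fold enrichment of 11.1, 6.82 and 9.53. Its downstream summits at 55, 64 and 56 bp had 11.3, 5.46 and 5.59. EFEMP1, a gene of the fibulin family of matrix proteins, was the exception in placement, with both summits downstream, at 100, 134 and 162 bp and at 433, 407 and 472 bp.

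Promoters with 3 or more summits in each replicate could combine a strong peak with weak ones. PASK, a gene for a PAS domain kinase, had a peak with a fold enrichment of 52.9, 28.7 and 26.2 at −337, −334 and −375 bp. Its summits at 159, 97 and 80 bp downstream had only 5.86, 4.09 and 3.51. SHC1, an adaptor of receptor tyrosine kinases that is divergent with CKS1B, had 3, 4 and 4 summits, the strongest at −427, −398 and −401 bp with 25.5, 16.6 and 16.5. MNT, a MAX-binding repressor gene, had its strongest peak at −273, −307 and −251 bp, with 19.1, 11.9 and 9.86. CYB5D1, INF2, FKBP3, IVNS1ABP and WDR81 completed the 8 with the most summits.

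Gene lists were described by their counts beside the 11.9% of all promoters, or the 22.4% of promoters with a summit in each replicate, called bound here. Of 10 TGFβ pathway genes that the study discusses, 3 were members, and the study chose that list on its own data. Only 6 of the 10 were bound, and 50.0% of these were members (Wilson interval 18.8 to 81.2). TGFBR2, the type II receptor, had 2, 3 and 2 summits, but not at the same places. A and B1 had an upstream peak (7.73 and 4.78) that B2 lacked, and B1 and B2 a peak at 841 and 798 bp downstream (7.04 and 6.73) that A lacked. Its main peak at 165, 210 and 208 bp had 23.9, 15.0 and 14.1. SMAD2, a signal transducer of the pathway, had a stable upstream summit at −298, −272 and −300 bp with 31.9, 10.4 and 19.1, whereas its downstream summit was at 183 bp in A and at 775 and 711 bp in B1 and B2. VEGFA, an angiogenic growth factor gene, had summits at 151 and 713 bp in A, −233 and 124 bp in B1 and −241 and 733 bp in B2. All 3 thus met the rule without the same pair of summits in every replicate.

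The ligand gene TGFB1 had 1, 2 and 2 summits and was no member. TGFBI had exactly 1 in each, TGFBR1 had 0, 1 and 1, INHBA 2, 1 and 1 and TGIF1 1, 0 and 0. SMAD3 and SMAD4 had none in this window. In the wider list of 59 TGFβ superfamily and SMAD genes 4 were members (6.78%, and 11.8% of the 34 bound). Among them was ACVR1, a type I receptor divergent with UPP2, with 13.5, 15.2 and 11.7 upstream and 38.9, 22.5 and 17.6 downstream.

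Among 8 E2F genes, which encode cell cycle transcription factors, 4 were members (E2F1, E2F2, E2F7 and E2F8). E2F7 had summits at −342, −352 and −362 bp with 26.4, 24.9 and 17.5. Its downstream summits at 147, 159 and 123 bp had 31.5, 16.3 and 15.7. E2F1 was weaker, with 8.97, 5.63 and 5.18 at −448, −437 and −434 bp and 10.8, 9.35 and 9.27 at 121, 89 and 98 bp. E2F2 had the same arrangement at a like strength, with 11.3, 9.21 and 8.54 upstream and 9.74, 7.50 and 4.60 downstream. E2F8 differed in that both summits were downstream, at 130, 127 and 169 bp and at 782, 859 and 806 bp. For E2F1 the study reports no significant PHF8 binding at the promoter in this line. The lists used here hold 2, 3 and 2 peak summits in its window, and the source of this difference was not tested.

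Among 34 genes of lysine demethylases and PHF proteins, the family names that PHF8 carries, 10 were members (29.4%) and 11 had a single peak (32.4%). Most of these promoters, 28, were bound. Of the bound ones 35.7% were members (Wilson interval 20.7 to 54.2), a range that includes the 22.4% of all bound promoters. KDM7A, a close relative of PHF8, had summits at −362, −376 and −380 bp with 21.4, 13.0 and 8.87. Its summits at 114, 127 and 139 bp downstream had 23.4, 15.0 and 10.5. KDM4A, a demethylase of histone H3, had 27.1, 14.5 and 16.2 upstream and a stronger downstream peak with 56.2, 35.8 and 29.8 at 469, 473 and 480 bp. PHF7, divergent with BAP1, had 46.0, 29.3 and 26.2 upstream, inside BAP1, and 56.3, 30.1 and 29.7 downstream. The other members were KDM1B, KDM3A, KDM4D, PHF1, PHF12, PHF13 and PHF14.

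In a list of 29 WNT ligand and Frizzled receptor genes of the WNT pathway 7 were members (24.1%). Of the 10 receptor genes 6 were members (FZD1, FZD2, FZD4, FZD5, FZD7 and FZD8). Of the 19 ligand genes WNT9A was the member, and 17 held no summit in any replicate, so few ligand promoters could be compared. FZD7 had 19.9, 12.3 and 5.93 upstream and 53.8, 33.4 and 32.9 downstream. FZD5 had 21.6, 12.5 and 10.3 upstream and 18.4, 13.4 and 9.82 downstream. FZD4 had 26.4, 10.3 and 9.37 upstream and 38.0, 22.8 and 21.1 downstream.

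Other families of developmental factors were close to the background or differed in placement. Of 39 HOX genes 5 were members (12.8%), of 18 SOX genes 2 (11.1%) and of 50 FOX genes 5 (10.0%). HOXA4 had 26.9, 19.4 and 13.8 at −372, −370 and −368 bp. SOX9, a factor of neural crest and cartilage, met the rule without a constant pair, with summits at −284 and 80 bp in A, 75 and 936 bp in B1 and 84 and 646 bp in B2. FOXA3 had both summits upstream, at −979, −965 and −984 bp, beyond the divergent start of SYMPK, and at −472, −470 and −477 bp.

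Most promoters of housekeeping gene families were bound, and their members are given by count. Cytosolic ribosomal protein genes had 17 members of 76 (22.4%, and 24.6% of those bound) and proteasome subunits 10 of 43 (23.3%, and 26.3% of those bound), so both were near the 22.4% of bound promoters. Translation initiation factors had 15 of 53 (28.3%, and 34.1% of those bound, 95% interval 21.9 to 48.9) and histone genes 15 of 77 (19.5%, and 31.9% of those bound, 20.4 to 46.2). Mitochondrial ribosomal protein genes had 10 members of 77 (13.0%) but 40 single-peak promoters (51.9%), NDUF genes of respiratory complex I had 3 of 35 (8.57%) and 17 single-peak promoters (48.6%), and ZNF genes had 53 of 496 (10.7%) and 195 single-peak promoters (39.3%). Of the bound promoters of these 3 families 13.7%, 9.68% and 13.9% were members. RPS18, head to head with VPS52, had 49.8, 34.4 and 27.7 upstream and 27.6, 32.5 and 22.9 downstream. EIF3J, which has a divergent lncRNA, had 38.6, 23.6 and 24.0 upstream and 45.3, 26.9 and 24.3 downstream. ZNF143, which encodes a promoter-binding zinc finger factor, had its strong peaks both downstream, at 202, 208 and 178 bp and at 904, 919 and 911 bp. Histone genes lie in clusters with near-identical copies, so reads at these promoters may be shared and their values are uncertain. Solute carriers had 31 members of 353 (8.78%, and 22.3% of those bound). MAP kinase and dual specificity phosphatase genes had 10 of 64 (15.6%, and 19.6% of those bound). Olfactory receptor genes had 0 of 413, of which 1 promoter held a summit in every replicate.

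Members were found on every autosome, from 8.40% of promoters on chromosome 3 to 14.8% on chromosome 19. The rule's edge separated promoters with like values. Just inside, ARF4 had a second summit at 987, 1000 and 995 bp downstream with a fold enrichment of 23.4, 22.3 and 29.5, and ARHGAP35 had one at −997, −979 and −999 bp with 9.28, 6.82 and 6.26. Just outside, NR1D2 had a second summit at 988, 1002 and 989 bp with 12.2, 10.2 and 11.7, and NPC2 at 1003, 977 and 990 bp with 27.2, 12.9 and 10.3.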

How the data were processed

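Peak lists of 3 PHF8 ChIP-seq replicates were used. According to the methods, reads were aligned by the authors to hg19 (GRCh37) with Bowtie2 at default settings, and narrow peaks were called with MACS for each replicate separately against input, with cutoffs of fold enrichment above 1.5 and a q-value read here as below 0.05. bcl2fastq and Picard are also named in the submitters' processing notes, and versions are not given in the sources used here. The labels and the methods name different library kits. Each deposited peak has a fold enrichment, a linear ratio of ChIP over local background at the summit. The p-value and q-value are deposited as −log10 values, and the deposited score is 10 times the latter and was not used. Each deposited line also holds the distance of the summit from the start of its peak.

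The 5′ ends of gene records and all transcript starts were taken from GENCODE release 44 lifted to GRCh37, and 0 peaks ran past a chromosome end. Chromosomes X and Y were left out. ChIP fragments at a summit were recovered as the whole number that gives both the deposited fold enrichment and p-value under a Poisson law, for 100% of peaks within a tolerance of 0.001. Depth is otherwise unknown. Motifs were searched on both strands of the GRCh37 sequence, and coordinates are 1-based. Partner genes were gene records starting upstream on the opposite strand within the window. Python 3.11.15, numpy 2.4.6, pandas 2.3.3, scipy 1.17.1, pysam 0.24.0 and matplotlib 3.10.9 were used, and the assignment of summits was tested on simulated peak lists.

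Members, gene lists, motifs and tests were chosen with earlier results of these data known, so no list is independent evidence. The genes named were, by rule, the 6 members with the strongest second peak, the 5 widest and 5 narrowest, up to 8 with 3 or more summits, the TGFβ list, at most 2 members of each of the other lists, and the nearest 2 on each side of the window's edge. E2F1, E2F8, KDM7A and FZD7, the other genes listed by name only, and the sequences of GRPEL1, CETN3 and COPE, which a second rule picked (1 other promoter it picked is not reported here), fall outside that rule and were chosen after values were seen. No set test was run. Alternatives were windows of 500 bp and 2 kb, stricter cutoffs, lists of equal size, canonical 5′ ends, summits at least 500 bp apart, 1 gene per locus, and leaving out each replicate.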

Additional observations from a re-analysis of the deposited data

How the results depend on the processing

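No paired analysis was possible because the only samples with values are 3 ChIP replicates of 1 group, and the inputs that share a letter with them have none. The limits are those of peak lists: a second peak counts only where the caller left a gap, no read depth is known, and the rule can be met by different summits in different replicates.

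The number of multi-peak promoters was 1341 with a window of 500 bp, 1438 with summits at least 500 bp apart and 3864 with at least 2 of 3 replicates. It was 1905 to 3079 under the other settings, and 2638 to 3079 without 1 replicate. The number of single-peak promoters stayed within 3945 to 5293. The distance of 588 bp became 525 bp (500 bp window), 662 bp (2 kb window), 671 bp (at least 500 bp apart), 582 bp (1 gene per locus) and 565 to 578 bp without 1 replicate. The share with summits on both sides became 99.3%, 80.1%, 91.6% and 88.1% under these 4 settings, 93.8% with canonical 5′ ends and 86.3% to 87.5% without 1 replicate. The share with another gene's TSS became 51.7%, 64.8%, 63.7% and 50.9% under the same 4 settings, 55.1% with canonical 5′ ends, 37.1% with protein-coding TSSs only, and 57.1% to 58.5% without 1 replicate. The CpG-rich length became 1420 bp (500 bp window), 1430 bp (2 kb window) and 1530 bp (at least 500 bp apart), and 1430 to 1440 bp without 1 replicate. The ratio of the strongest to the second peak became 1.77, 1.73, 1.67 and 1.77 under the 4 settings, 1.72 at a fold enrichment above 4, 1.74 at a q-value below 0.001, 1.73 with equal lists, 1.74 with canonical 5′ ends, 1.71 in recovered fragments and 1.74 to 1.80 without 1 replicate. The window settings change which promoters are counted, and the causes of the other shifts were not tested. The held-out share was 81.8% and the held-out log2 difference −0.09 at a fold enrichment above 4. The CCAAT difference of 20.9 percentage points was 16.1 to 24.8 under 11 settings added after seeing the data.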
